A study of Macaca mulatta with 4 samples.

Results

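Narrow domains of trimethylation of lysine 27 on histone H3 (H3K27me3) that were found in both libraries of macaque morulae labelled GG are described here. They were chosen by the covered bases of the GG libraries themselves. On each of the 20 autosomes, covered intervals separated by at most 1500 bp were joined, domains with at least 450 covered bases and a width under 6 kb were kept, and a domain of GG replicate 1 became a member if it overlapped a kept domain of GG replicate 2 by at least 1 bp. The rule found 440 members among the 15765 domains of any width with at least 450 covered bases in GG replicate 1, which is 2.79% of them. Together they span 1.79 Mb, or 0.0671% of the autosomes. Coverage in the AG libraries took no part in the choice.

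The study profiled rhesus macaque (Macaca mulatta) embryos at the morula stage, in 2 groups of 2 libraries. The GG embryos are gynogenetic and carry a nuclear genome of maternal origin only, and the AG embryos are androgenetic and carry one of paternal origin only. Both groups went through the same CUT&RUN protocol, in which an antibody against H3K27me3 brings a nuclease to marked chromatin and the DNA cut free is sequenced. No label gives further treatments, the number of embryos in a library or the animals they came from, and nothing says that replicates came from separate pools.

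H3K27me3 is deposited by the Polycomb repressive complex PRC2, and marked genes are generally silent. In most somatic and pluripotent cells the mark forms peaks at the CpG-rich promoters of developmental genes as well as wider blankets. In mouse, the oocyte lays down broad H3K27me3 domains far from promoters, some of which pass to the embryo on the maternal chromosomes and silence the maternal allele of a small group of genes without DNA methylation. Genes in or near the members were not analysed here.

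The values are covered bases. A base counts as covered if it lies under at least 1 sequenced tag on an island, a stretch that the submitters' caller found enriched. Each GG file lists several times as many intervals (362999 and 287230) as each AG file (42512 and 44337). None gives tag numbers, so sequencing depth is unknown. Islands were called with a window of 200 bp and a gap of 200 bp in AG and of 300 bp and 1200 bp in GG. The group and the calling settings cannot be told apart, and a comparison of AG with GG levels carries both. Comparisons of 1 AG library over different regions do not cross these settings. A domain covered in part may be marked in part of the cells or weakly in all of them, and the files do not separate these. With 2 libraries against 2, the smallest two-sided p of an exact permutation test is 0.333, and the GG values were used to choose the members, so differences are given as values per library without a test.

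The members were short blocks with dense coverage in GG. Their width in GG replicate 1 ran from 563 to 5997 bp with a median of 4371 bp, and the matching domain of GG replicate 2 had a median of 4554 bp. Widths gathered toward the limit of the rule, with 135 members between 5 and 6 kb, 127 between 4 and 5 kb, 84 between 3 and 4 kb and 94 under 3 kb. Within the span of a member, GG replicate 1 covered a median of 88.6% of the bases and GG replicate 2 a median of 83.2%. The longest unbroken interval inside a member had a median of 1712 bp in GG replicate 1 and 1698 bp in GG replicate 2. A member consisted of a median of 5 intervals in GG replicate 1 and its match of 6 in GG replicate 2. These GG levels describe the choice and test nothing.

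On both sides of the width limit GG replicate 1 covered similar shares of the domains named here, while GG replicate 2 covered less of those just inside it. The rule bears on the second point. Members had to meet a GG replicate 2 domain under 6 kb, while the domains just outside could meet one of any width. The widest members lay on chromosome 8 from 26700879 to 26706875 (5997 bp), chromosome 2 from 180373243 to 180379223 (5981 bp) and chromosome 1 from 108847586 to 108853565 (5980 bp). GG replicate 1 covered 93.8%, 90.8% and 80.5% of them, and GG replicate 2 covered 63.4%, 66.7% and 49.4%. The narrowest domains left out for width, which also overlapped a domain in GG replicate 2, lay on chromosome 12 from 14158168 to 14164167 (6000 bp), chromosome 10 from 56709007 to 56715009 (6003 bp) and chromosome 2 from 108611398 to 108617401 (6004 bp). GG replicate 1 covered 87.6%, 95.1% and 85.4% of these, and GG replicate 2 covered 75.5%, 97.8% and 88.6%.

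Few narrow domains of GG replicate 1 were members. The rule asks for an overlapping narrow domain in each GG library, so the match in extent given here follows in part from the choice and is a description. GG replicate 1 held 3253 narrow domains and GG replicate 2 held 1092, so members were 13.5% of the first set and 40.3% of the second. Of the other narrow domains of GG replicate 1, 918 overlapped a domain of at least 6 kb in GG replicate 2 and 1895 met no domain with 450 covered bases there. In GG replicate 2, 553 narrow domains met only wider ones in replicate 1 and 99 met none. For the members, the overlap divided by the joint span of both GG domains had a median of 0.801 and was at least 0.5 in 401 of 440. The starts differed by a median of 312 bp and the ends by 315 bp, close to the calling window of 300 bp, and in 106 members both edges agreed within that window. The best matched pair lay on chromosome 13 from 82886632 to 82887342, where the replicate 2 domain was 709 bp wide against 711 bp in replicate 1.

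The AG libraries covered a minority of the members, more often than they covered GG domains in general. AG replicate 1 had at least 1 covered base in 117 members (26.6%) and AG replicate 2 in 145 (33.0%). Both AG libraries had one in 98 members (22.3%, 95% Wilson interval 18.6% to 26.4%, which covers counting error only), against 12.0% of all 15765 GG replicate 1 domains and 0.951% of 611652 autosomal windows as long as the median member. Neither AG library had a covered base in 276 members (62.7%), against 77.0% of all GG replicate 1 domains. A further 19 members had AG bases in replicate 1 alone and 47 in replicate 2 alone.

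As a share of bases, the members were covered to 10.2% in AG replicate 1 and 12.4% in AG replicate 2, a mean of 11.3% ± 1.53 (SD, n = 2). Over the autosomes as a whole the same libraries covered 0.497% and 0.635%, so the members were covered 20.6 and 19.6 times as densely. AG coverage fell off at the members' edges. In the first 2 kb beyond them it was 1.83% and 1.82% in AG replicates 1 and 2, and from 10 to 20 kb away it was 1.97% and 2.31%. The flanks thus lay above the autosomal level in both AG libraries, with no further rise toward the domain. In GG replicate 2 the first 2 kb were covered to 11.7% and in GG replicate 1 to 0.488%, which the joining of intervals in replicate 1 sets by construction.

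**Figure D1:**
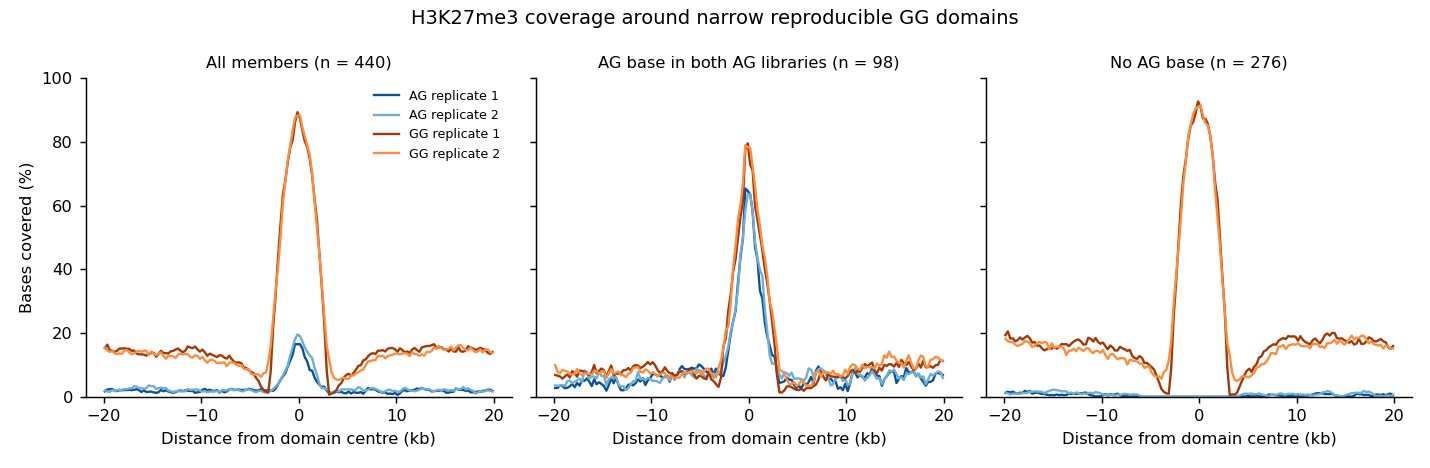
Percent of bases covered (vertical axis) in windows of 250 bp by distance from the member's centre in kb (horizontal axis), with 1 line for each library, for all 440 members, the 98 with an AG base in both AG libraries and the 276 without any. AG coverage peaks at the centre, where the first window right of it has 16.6% and 19.1% over all members in AG replicates 1 and 2, and 63.6% in both AG libraries over the 98.

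The AG libraries covered the members more densely than the wider GG domains. GG replicate 1 domains of 6 to 20 kb that met a domain in GG replicate 2 numbered 6353, and 3.67% and 4.63% of their bases were covered in AG replicates 1 and 2. Those of at least 20 kb numbered 3257, with 3.51% and 4.05%. Against both classes together the members were covered 2.87 times as densely in AG replicate 1 and 2.92 times in AG replicate 2, and this difference exceeded the spread between the AG libraries. The share of domains with any AG base in both libraries did not follow this order, since it was 11.9% at 6 to 20 kb and 24.1% at 20 kb and over against 22.3% in the members. A wide domain offers more bases to be touched. The wider domains could meet a GG replicate 2 domain of any width, while members had to meet a narrow one. All 1358 GG replicate 1 domains under 6 kb that met one of any width were covered to 6.41% and 8.06% in AG replicates 1 and 2. The 1895 narrow ones that met none had 2.66% and 4.11%, below the level at 6 to 20 kb.

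A window of fixed length at the centre gives each domain the same number of bases. The central 1 kb held an AG base in both AG libraries in 84 members (19.1%), against 6.33% of domains of 6 to 20 kb, 4.45% of domains of 20 kb and over and 5.18% of all GG replicate 1 domains. In that window AG replicate 1 covered 16.2% of the bases of members, 5.28% at 6 to 20 kb and 4.19% at 20 kb and over. AG replicate 2 covered 18.6%, 6.79% and 4.78% in the same order. Both AG libraries thus gave the same ranking of the 3 width classes. The central window was chosen after the data were seen.

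Among the members, AG coverage was concentrated in the shortest. The 94 members under 3 kb were covered to 32.5% in AG replicate 1 and 31.9% in AG replicate 2, and 48 of them (51.1%) had an AG base in both. The 346 members of 3 kb and over were covered to 7.89% and 10.3%, and 50 of them (14.5%) had an AG base in both. Among the 20 members under 1 kb, 15 had an AG base in both libraries, and 71.2% and 80.3% of their bases were covered. GG coverage did not show this gradient, but the rule used it. The least number of 450 covered bases is a larger share of a shorter domain, so the GG values are a description and no control. GG coverage was 83.3% and 80.5% in GG replicates 1 and 2 under 3 kb and 85.3% and 75.3% between 5 and 6 kb. The members of 3 kb and over alone were 2.32 times as densely covered in AG as the wider GG domains, on the mean of both AG libraries.

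In each 1 kb class of width from 1 kb upwards, members were covered more in both AG libraries than the narrow domains of GG replicate 1 that were no members. Between 2 and 3 kb, the 45 members were covered to 20.6% in AG replicate 1 and 20.3% in AG replicate 2. In 49 domains narrow in GG replicate 1 but at least 6 kb wide in GG replicate 2 the values were 6.89% and 7.86%, and in 161 without a domain in GG replicate 2 they were 4.03% and 7.15%. Members of this width thus led both other kinds in both AG libraries. Between 1 and 2 kb, 29 members were covered to 49.1% and 44.4%, 7 domains wider in GG replicate 2 to 0 and 9.28%, and 49 without one to 3.97% and 6.17%. Under 1 kb the order did not hold in AG replicate 1. There the 20 members were covered to 71.2% and 80.3%, the only domain wider in GG replicate 2 to 73.7% and 0, and the 6 without one to 46.8% and 50.0%. Between 5 and 6 kb members were again highest, by smaller distances. There, 6.54% and 10.0% of the bases were covered in 135 members, 4.04% and 5.21% in 401 domains wider in GG replicate 2 and 1.56% and 2.61% in 654 without one. With the narrow domains of GG replicate 1 taken without GG replicate 2, all 3253 were covered 1.38 times as densely in AG as wider domains, and 8.52% had an AG base in both libraries. Those of GG replicate 2 taken without replicate 1 were covered 2.37 times as densely, with 18.5%.

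**Figure D2:**
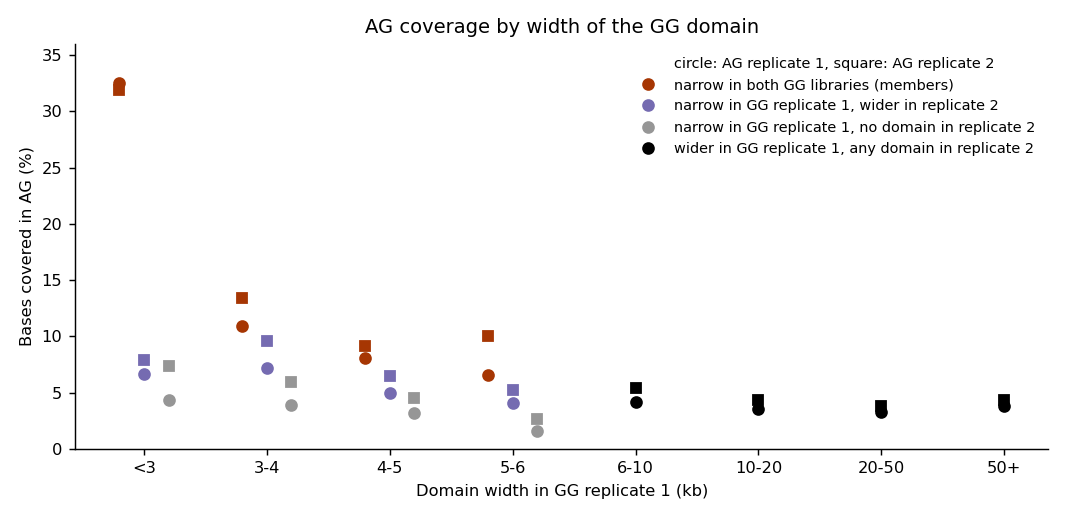
Percent of bases covered in AG (vertical axis) by width of the GG replicate 1 domain in kb (horizontal axis). Circles are AG replicate 1 and squares AG replicate 2, and colours give what GG replicate 2 had at the same place. Members under 3 kb stand at 32.5% and 31.9%, and the wider domains from 6 kb upwards do not pass 4.13% in AG replicate 1.

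The AG libraries agreed in part on which members were covered and on how far. Beside the 98 members with an AG base in both, 19 had one in AG replicate 1 alone and 47 in AG replicate 2 alone. Over the 440 members the covered percentages of AG replicates 1 and 2 had a Pearson r of 0.828 and a Spearman rho of 0.724. This is a description over regions, most of which are at 0 in both, and both libraries share a protocol and calling settings. At least 50% of the bases were covered in 68 members in AG replicate 1, in 59 in AG replicate 2 and in 50 in both. In the 98 members with an AG base in both, AG replicate 1 covered a median of 56.8% and AG replicate 2 of 59.8%. GG replicates 1 and 2 covered medians of 84.5% and 79.8% in the same 98. In 57 of the 98, both AG libraries covered fewer bases than either GG library, and in 19 both AG libraries covered more than either GG library.

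**Figure D3:**
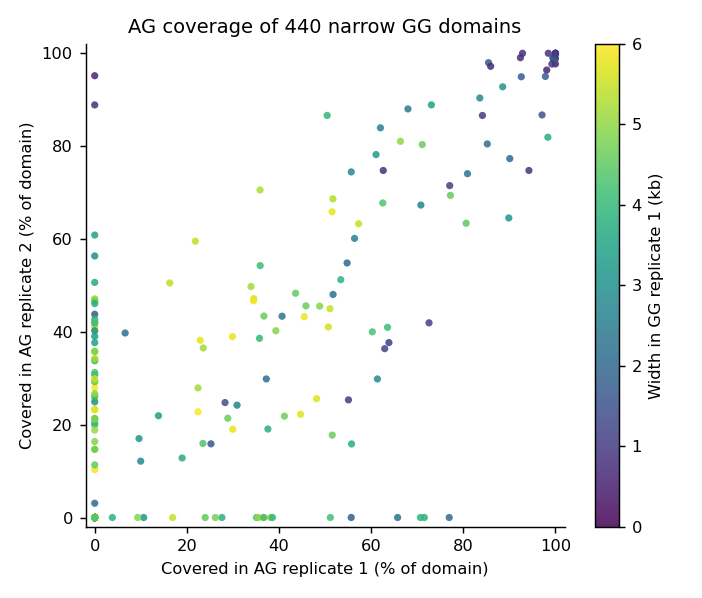
Percent of each member covered in AG replicate 1 (horizontal axis) and AG replicate 2 (vertical axis), 1 point for each of 440 members, coloured by width in GG replicate 1. The 18 members with at least 90% in both AG libraries gather in the top right corner and are all under 2 kb wide, while points on the axes are members covered in 1 AG library or in none.

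The AG signal on these 98 members was mostly a narrow domain as well. Intervals of an AG library joined in the same way formed a domain with a median width of 2099 bp in AG replicate 1 and 1976 bp in AG replicate 2, against a median member width of 3122 bp. It was under 6 kb in 92 of 98 members in AG replicate 1 and in 90 in AG replicate 2. The share of all AG domains under 6 kb was not computed, so this is not shown to be particular to the members. AG islands were also called with a gap of 200 bp, against 1200 bp in GG. The AG domain lay wholly inside the member in 34 and 37 cases and was wider than the member in 37 and 40. The centres of the AG domain and the member were apart by a median of 384 bp and 463 bp. The widest AG domain touching a member measured 18801 bp in AG replicate 1 and 28931 bp in AG replicate 2.

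At 18 members, on 11 chromosomes, both AG libraries covered at least 90% of the bases. Their widths ran from 568 to 1967 bp with a median of 898 bp, and the AG domains there had medians of 1018 and 1026 bp. The 4 starts fell within 100 bp of each other in 10 of the 18 and the 4 ends in 13, and in 7 both did. Over all 98 members with AG bases in both, both edges did so in 8, these 7 among them. Coverage of at least 90% leaves AG little room to begin or end inside so short a member. Close edges thus follow in part from the choice of the 18. At 10 of the 18, both AG libraries covered more bases than either GG library. That order also follows in part from choosing the 18 by their AG coverage. Repeats and assembly gaps of rheMac8 were not analysed here, so their part in these short members, and in the higher AG coverage of the shortest members as a whole, was not tested.

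The 6 members with the highest AG coverage were among these 18. On chromosome 5 from 31761089 to 31762114 (1026 bp) both AG libraries covered every base, and GG replicates 1 and 2 covered 97.5% and 84.3%. There the 4 starts lay within 6 bp and the 4 ends within 72 bp, and the nearest other GG domain was 915414 bp away. On chromosome 7 from 31699895 to 31700637 (743 bp) AG covered 100% in both libraries and GG 92.3% and 91.9%. That member was flanked by no other GG domain for 495588 bp, and its starts and ends in the 4 libraries agreed within 58 and 50 bp. On chromosome 11 from 77522207 to 77522904 (698 bp) AG covered 100% in both libraries and GG 87.7% and 95.1%. On chromosome 17 from 9005060 to 9006035 (976 bp) all 4 libraries covered every base, but the AG replicate 2 domain went on to a width of 2431 bp. That member and the remaining pair were less isolated, at 9921, 6051 and 2547 bp from the nearest other GG domain. On chromosome 8 from 134941369 to 134942254 (886 bp) AG covered 100% and 99.9% and GG 100% and 96.4%. On chromosome 20 from 30207815 to 30208935 (1121 bp) AG covered 100% and 99.7% of the bases and GG 90.6% and 92.2%. At these places the groups overlapped or AG was the higher, in contrast to most members. These 6 were picked for the highest AG coverage, which left GG almost no room to exceed it, so this order follows from the choice.

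The members without AG signal were wider. No AG base lay inside a member or within 10 kb of it in 248 members (56.4%). The 276 members without an AG base inside had a median width of 4537 bp, against 3122 bp for the 98 covered in both AG libraries. GG replicates 1 and 2 covered medians of 89.1% and 83.4% of them. Members without AG bases nearby were ranked by the covered bases of their domain in each GG library, counting the whole GG replicate 2 domain where it runs past the member. The first was on chromosome 13 from 95542479 to 95548369 (5891 bp), where GG replicates 1 and 2 covered 5551 and 5540 bases and both AG libraries 0. Next came chromosome 3 from 40178344 to 40184169 (5826 bp), with 5502 and 5403 bases in GG. On chromosome 4 from 88491209 to 88497065 (5857 bp) GG covered 5563 and 4503 bases of the member, and the whole GG replicate 2 domain held 5289. Both AG libraries were listed at 0 in all 3, and GG coverage ran from 76.9% in GG replicate 2 on chromosome 4 to 94.98% in GG replicate 1 there.

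The others of this kind lay on chromosome 7 from 54549357 to 54555277 (88.9% and 82.9% covered in GG replicates 1 and 2), chromosome 9 from 128504479 to 128510153 (93.5% and 89.7%) and chromosome 10 from 50648974 to 50654422 (99.7% and 82.5%). Their surroundings differed. The chromosome 13 and chromosome 3 members were separated from another GG domain by only 1573 and 1847 bp, just past the joining distance, whereas the chromosome 9 member stood 77574 bp apart.

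**Figure D4:**
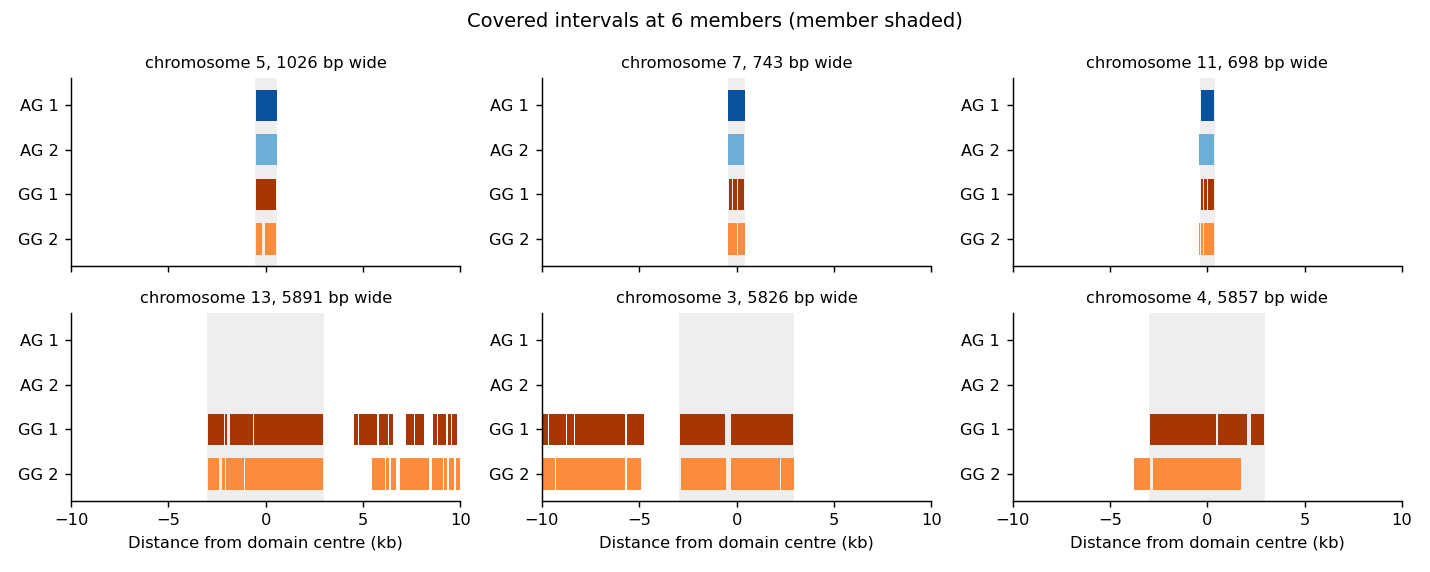
Covered intervals (bars) in the 4 libraries (rows) by distance in kb from the member's centre (horizontal axis), with the member's span shaded and the shortest gaps too small to be drawn. The upper panels are the 3 members with the highest AG coverage, filled in all 4 libraries and bare around them, and the lower panels are the first 3 by GG bases, counted over the whole domain of each GG library, with none in AG within 10 kb.

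The members stood farther from other GG domains than the wider GG domains did. The distance from a member to the nearest other domain in either GG library had a median of 22684 bp, against 5550 bp for domains of 6 to 20 kb and 3019 bp for domains of 20 kb and over. Another GG domain lay within 20 kb of 212 members (48.2%), and of 74.9% and 87.5% of the domains in these classes. More than 100 kb separated 130 members (29.6%) from any other, against 9.73% and 3.07%. The rule bears on this in part, since intervals close to a larger block were joined to it. AG coverage was higher in the isolated members. Those more than 100 kb away were covered to 12.8% and 16.2% in AG replicates 1 and 2, and those within 20 kb to 7.93% and 9.44%. The 98 members between 20 and 100 kb away were covered to 11.9% and 14.1%. Members under 3 kb numbered 36 of the 130 isolated ones, 17 of the 98 between and 41 of the 212 close ones. Whether width accounts for the difference was not tested.

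AG coverage varied among the most isolated members. On chromosome 5 from 161731477 to 161733027 (1551 bp) both GG libraries covered every base and both AG libraries 0, with no other GG domain for 1903760 bp. On chromosome 12 from 28506009 to 28510895 (4887 bp) GG covered 99.1% and 96.1% and AG 0. On chromosome 14 from 39679523 to 39682279 (2757 bp) GG covered 100% and 94.1% and AG 0. Of the 4 farthest from other domains only chromosome 8 from 33721477 to 33725753 (4277 bp) had AG bases, with 31.2% covered in AG replicate 2 and 0 in AG replicate 1. The next by distance was the chromosome 11 member described above, covered to 100% in both AG libraries and 1320303 bp from another GG domain. It was followed by chromosome 2 from 64502635 to 64508436 (5802 bp), with 30.0% and 19.01% in AG, a member named after its values were seen.

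The members were denser near autosome ends, as GG domains of other widths also were. The outer 5 Mb at each end hold 7.48% of the autosomal span and held 81 members (18.4%), against 13.6% of all GG replicate 1 domains. That set includes domains without a match in GG replicate 2. Of the wider domains with such a match, the outer parts held 14.4% at 6 to 20 kb and 21.5% at 20 kb and over. The density was 40.5 members per 100 Mb there and 14.5 in the inner parts, and for domains of 6 kb and over it was 807 and 323.3 per 100 Mb. AG coverage of the members was alike in both places. An AG base in both AG libraries was found in 18 of 81 outer members (22.2%) and 80 of 359 inner ones (22.3%). In AG replicates 1 and 2 the outer members were covered to 10.4% and 14.1%, and the inner ones to 10.2% and 12.0%.

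Chromosomes differed in how many members they held for their wider GG domains. Over all autosomes there were 16.5 members per 100 Mb and 4.58 members for every 100 GG domains of 6 kb and over. Chromosome 17 had 17 members and 139 wider domains, or 12.2 per 100, the highest of the 20 autosomes, and 9 of its 17 members had an AG base in both AG libraries. By length its members were near the level of all autosomes, at 17.8 per 100 Mb. Its wider domains were the sparsest of any autosome, at 145.5 per 100 Mb against 359.4 over all. In members per 100 wider domains, chromosome 11 followed with 26 members and 7.58, and chromosome 19 with 21 members and 7.24. Chromosome 19 also had the highest density by length, 39.1 members per 100 Mb. The lowest ratio was that of chromosome 13, with 9 members and 1.88 per 100, and chromosome 18 had only 4 members. AG bases in both AG libraries were rare among the members of chromosome 16 (1 of 22) and chromosome 10 (2 of 27), against 98 of 440 over all autosomes. They were more common on chromosome 9 (10 of 26), chromosome 6 (8 of 19) and chromosome 18 (2 of 4). The same share among wider GG domains was not computed for each chromosome, so these counts are not shown to be particular to the members. With so few members on a chromosome these counts are given as a description.

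**Figure D5:**
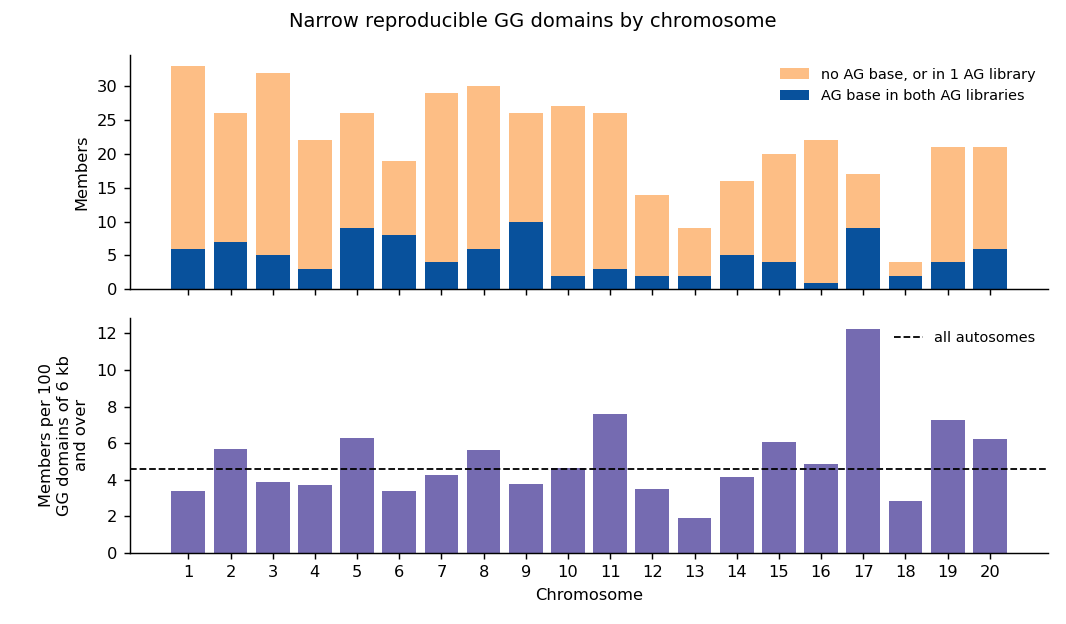
Members on each autosome (upper bars, with those having an AG base in both AG libraries in blue) and members for every 100 GG domains of at least 6 kb (lower bars, dashed line at 4.58 for all autosomes). Chromosome 17 stands highest in the lower bars at 12.2 and chromosome 13 lowest at 1.88.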

How the data were processed

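Groups and replicate numbers came from the sample titles. SICER 1.1, deepTools 3.3.1, Bowtie2, SAMtools, Trim Galore and build rheMac8 are named in the submitters' processing notes, and the deposited file names give an E value of 0.001 for islands of each library. The files as deposited by the authors list chromosome, start and end of covered intervals, with no score, read here with starts counted from 0 and printed from 1. SICER scores tags in windows, so depth, window and gap all move island number and extent. No pair of libraries shared more than 68 identical intervals.

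Domains, overlaps and covered bases were computed in Python 3.11.15 with numpy 2.4.6, pandas 2.3.3 and scipy 1.17.1, and checked against a base-by-base count on simulated intervals. Chromosome span is the highest interval end. Wider domains were compared if they met a GG replicate 2 domain of at least 450 covered bases. Named members follow a ranking rule (highest AG coverage, most GG bases without AG, best match, width limit, isolation, densest 1 Mb). The members, classes and this rule were chosen with earlier results of these data known. No genome or annotation of rheMac8 was used here, so gene names and sequences were not analysed. X was outside the rule.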

Additional observations from a re-analysis of the deposited data

How the results depend on the processing

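The members stayed more densely covered in AG than wider GG domains under each of the 14 alternatives tried for that ratio, itself added after the data were seen, which ran from 1.38 to 6.37 around 2.90. It was 2.42 and 3.17 with joining gaps of 750 and 3000 bp, 2.64 with at least 900 covered bases, 6.37 and 2.38 with width limits of 4 and 8 kb, 2.86 with a reciprocal overlap of 50%, and 1.38 to 2.92 leaving out 1 library in turn. Chosen after the data were seen, members of at least 3 kb gave 2.32, the central 1 kb gave 3.17 and wider domains of the same class in both GG libraries gave 2.76. The number of members was 819 with the 750 bp gap, 111 and 1175 with limits of 4 and 8 kb, and 1092 to 3253 with 1 GG library. The percent with an AG base in both AG libraries was 16.5 with the 750 bp gap and 17.2 with 900 bases. It was 44.1 and 18.2 with limits of 4 and 8 kb, and 14.5 for members of at least 3 kb. With 1 GG library it was 8.52 to 18.5. Leaving out AG replicate 1 or 2 changes the measure to any base in the remaining AG library, which gave 33.0 and 26.6. The mean AG covered percent was 9.75 with the 750 bp gap, 25.1 and 9.17 with limits of 4 and 8 kb, 5.01 to 12.4 leaving out a library, 9.12 for members of at least 3 kb and 17.4 in the central 1 kb. The percent near autosome ends was 23.6 with the 750 bp gap, 13.4 with the 8 kb limit, 11.8 to 14.8 with 1 GG library, and 10.4 and 30.9 for the outer 2 and 10 Mb. The cause of these shifts was not tested. No paired analysis was made, since the labels name no pairs of AG and GG libraries and none of these results comes from a test. Depth is unknown, so a base listed at 0 may be marked below the caller's limit.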

Other observations

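Seen from the AG side, narrow domains were more numerous. By the same rule AG replicate 1 held 4046 narrow autosomal domains and AG replicate 2 held 7278, and 2484 of replicate 1 overlapped one of replicate 2. Of these 2484, 1393 (56.1%) overlapped a GG replicate 1 domain of any width that met a domain in GG replicate 2, and 82 (3.301%) overlapped a member. The members hold 0.0671% of the autosomes. The same 82 overlaps made up 18.6% of the members. The AG intervals had been called with a smaller gap, and the groups and calling settings cannot be told apart in these counts.

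No window of 1 Mb held more than 4 members, and the first by position with that number was on chromosome 2. Its members ran from 7134843 to 7138002, 7140253 to 7141865, 7156283 to 7159147 and 7161293 to 7163626. GG replicate 1 covered 32.1%, 45.1%, 71.6% and 51.4% of them and GG replicate 2 covered 40.4%, 36.9%, 58.6% and 56.0%, all below the GG medians over all members. AG replicate 1 covered 10.6%, 25.2%, 61.4% and 40.7% of them and AG replicate 2 covered 0, 15.9%, 29.8% and 43.4%. In each the lowest library was an AG one, while in the fourth all libraries lay between 40.7% and 56.0%.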
